A study of Mus musculus with 12 samples.

Results

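The transcripts of the mouse mitochondrial genome were followed in 12 RNA libraries of spleen CD4 T cells. The set was made of every gene whose symbol begins with mt- in the deposited tables, which is 37 of 55401 genes: 13 protein-coding genes, 2 ribosomal RNA (rRNA) genes and 22 transfer RNA (tRNA) genes. Of these, 28 lie on the plus strand of the mitochondrial chromosome and 9 on the minus strand, namely mt-Nd6 and 8 tRNA genes.

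All mice were C57BL/6 and had been infected for 21 days with Leishmania donovani, the protozoan parasite of visceral leishmaniasis. The 6 libraries called TLCP came from CD4 T cells sorted as LAG-3+ CXCR5+ PD-1lo/int. The 6 libraries called Tfh came from CXCR5+ PD-1hi T follicular helper cells, most of them germinal center cells per the series description. The description gives 6 mice, no uninfected group was used here, and no source used here gives the age of the mice.

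Mitochondrial DNA encodes the RNA of the mitochondrial ribosome, a set of tRNAs and core subunits of the respiratory chain and ATP synthase, while every other protein of the organelle comes from nuclear genes. Each strand is transcribed as a long precursor that is cut at the tRNAs between the coding genes, so the amounts of the single RNAs depend on processing and decay as well as on transcription. Activated T cells are known to enlarge and remodel their mitochondria, and nuclear and mitochondrial genes must both be expressed to build the respiratory complexes.

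The libraries held 6939770 to 12688306 assigned reads each. Of all reads, 44.9% to 56.4% were not assigned to a gene, multimapping and ambiguous ones included. Sort markers followed the labels, with Lag3 at a mean of 189 CPM (normalised counts per 1e6 assigned reads) in TLCP and 40.5 in Tfh, and Pdcd1 (PD-1) at 36.6 and 318. Of the 8 T cell and sort markers, Lag3 was higher in TLCP, Cd3e did not pass and 6 were lower (Cd3d, Cd3g, Trac, Cd4, Cxcr5 and Pdcd1), with a median log2 of -0.49 and a summed level of 2695 to 3303 CPM in TLCP and 4319 to 4761 CPM in Tfh. Markers of B cells (10 of 12 higher) and plasma cells (5 of 7 tested higher) were more abundant in TLCP, and their part in the results below was not tested. The summed level of the B cell markers was 5014 to 23965 CPM in TLCP and 1199 to 2174 CPM in Tfh, and that of the plasma cell markers was 1976 to 11610 and 163 to 1401 CPM. All 5 tested basophil and mast cell markers were also higher in TLCP (26.1 to 96.2 against 0.239 to 7.17 CPM summed). A nuclear gene with rRNA-like sequence, CT010467.1, took 12.9% to 24.1% of the assigned counts in TLCP and 16.6% to 30.9% in Tfh. Library Tfh 3 stood apart in reads on the strand opposite to several mitochondrial genes, and the affected values are given with and without it.

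Of the 37 genes, 12 had enough counts to be tested: both rRNA genes, 7 protein-coding genes and 3 tRNA genes. By edgeR's quasi-likelihood test, adjusted over all 12015 genes tested by the method of Benjamini and Hochberg with a threshold of 0.05, 3 were higher in TLCP (mt-Nd2, mt-Nd4 and mt-Nd5), 4 were lower (mt-Rnr1, mt-Rnr2, mt-Co1 and mt-Nd6) and 5 did not pass. Over all genes tested, 33.2% passed, 16.8% higher and 16.4% lower. The groups did not overlap for 4 of the 12, mt-Rnr1, mt-Rnr2, mt-Nd5 and mt-Nd6, and for 17.2% of all genes tested. The median log2 fold change was 0.10 over the 12 and 0.00 over all genes tested. In bulk samples fewer cells of a type and less RNA per cell cannot be told apart. The authors' deposited table called the same 7 genes in the same directions.

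**Figure D1:**
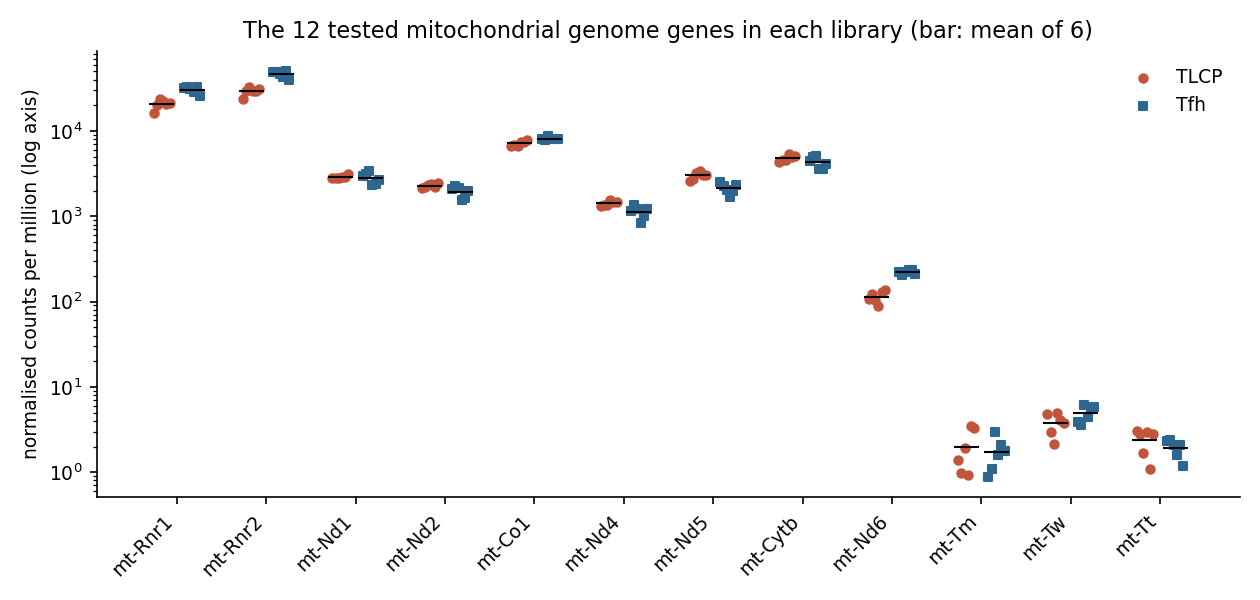
CPM, normalised counts per 1e6 reads (log axis), of the 12 tested mitochondrial genes in each library, TLCP as circles and Tfh as squares, with a bar at the mean of 6. The 2 rRNA genes were highest in both groups, the 3 tRNA genes lay under 7 CPM in every library, and mt-Nd6 lay at 88.0 to 136 CPM in TLCP and 204 to 236 CPM in Tfh.

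Both RNAs of the mitochondrial ribosome were lower in TLCP. mt-Rnr1, the small-subunit 12S rRNA (chrM:70-1024, GRCm38, plus strand), had 16202, 20904 and 23399 CPM in TLCP as lowest, median and highest value, and 25626, 31598 and 33036 CPM in Tfh. mt-Rnr2, the large-subunit 16S rRNA (chrM:1094-2675, plus strand), had 23619, 29574 and 32304 CPM in TLCP and 39911, 47683 and 50338 CPM in Tfh. Every TLCP library lay below every Tfh library for both genes. The change was 1.47-fold for mt-Rnr1 (log2 -0.56, SE 0.09, adjusted p = 7.48e-05) and 1.59-fold for mt-Rnr2 (log2 -0.67, SE 0.08, adjusted p = 4.75e-06). The molar balance of the 12S and 16S RNAs is set by a shared precursor and by later processing, and the ratio of their counts also differed: mt-Rnr2 per mt-Rnr1 was 1.31 to 1.46 in TLCP and 1.49 to 1.56 in Tfh, without overlap. On the authors' TPM scale both rRNA differences kept their direction and missed the threshold (log2 -0.28, adjusted p = 0.166, and log2 -0.38, adjusted p = 0.0524, limma on log2(TPM + 1)), where the median of all genes lay at 0.25.

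The protein-coding genes differed in direction among themselves. Of the 7 tested, 5 encode subunits of complex I (NADH dehydrogenase) that are read from the plus strand or, for mt-Nd6, from the minus strand. mt-Co1 encodes the catalytic subunit of complex IV (cytochrome c oxidase) and mt-Cytb the cytochrome b of complex III. Per 1000 bases of annotated length the mean levels in TLCP were 4632 ± 331 CPM (SD, n = 6) for mt-Co1, 4202 ± 336 for mt-Cytb, 3014 ± 113 for mt-Nd1, 2203 ± 119 for mt-Nd2, 1661 ± 169 for mt-Nd5, 1032 ± 66.0 for mt-Nd4 and 220 ± 34.4 for mt-Nd6. In Tfh they were 5223 ± 229, 3758 ± 579, 2929 ± 427, 1863 ± 275, 1166 ± 162, 818 ± 136 and 427 ± 26.3 CPM per 1000 bases in the same order of genes. This order of levels held in each of the 12 libraries, although the ranges of mt-Co1 and mt-Cytb overlapped within TLCP. The levels of mt-Co1 and mt-Nd4 may be understated on this scale, since part of each gene has nuclear copies, as described below, and this was not tested. Counted only over start positions of 50-base runs that no other transcript holds, mt-Co1 stood at 9791 ± 699.9 CPM per 1000 positions in TLCP, and mt-Nd4 moved above mt-Nd2 (2833 ± 181 against 2518 ± 136) in 6 of 6 TLCP and 4 of 6 Tfh libraries.

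Of the plus-strand complex I genes, mt-Nd4 and mt-Nd5 lie farther along the genome than mt-Nd1 and mt-Nd2 and had larger point differences. The differences between genes were not tested. Beyond complex I this order did not hold. mt-Co1, between mt-Nd2 and mt-Nd4, had a log2 difference of -0.17, and mt-Cytb, beyond mt-Nd5, had 0.16. mt-Nd5 (chrM:11742-13565) had 2587, 3080 and 3437 CPM in TLCP (lowest, median, highest) and 1665, 2145 and 2497 CPM in Tfh. The groups did not overlap, and the fold was 1.42 (log2 0.51, SE 0.09, adjusted p = 0.000194). mt-Nd4 (chrM:10167-11544) had 1316, 1413 and 1555 CPM in TLCP and 828, 1175 and 1357 CPM in Tfh, a 1.26-fold rise (log2 0.34, SE 0.09, adjusted p = 0.00907). Its groups overlapped through library Tfh 2, the highest of that group, and 5 of the 6 numbered pairs were higher in TLCP. mt-Nd2 (chrM:3914-4951) had 2145, 2278 and 2470 CPM in TLCP and 1544, 2035 and 2235 CPM in Tfh. This overlapping difference passed (1.18-fold, log2 0.24, SE 0.08, adjusted p = 0.0324), and it was lost in 5 of 12 fits that left out 1 library (TLCP 3, 4 or 6, Tfh 4 or 5), with adjusted p up to 0.0837. mt-Nd1 (chrM:2751-3707), next to the 16S rRNA gene, had 2776, 2861 and 3086 CPM in TLCP and 2349, 2816 and 3348 CPM in Tfh (log2 0.04, SE 0.08, adjusted p = 0.733).

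mt-Co1 (chrM:5328-6872) had 6625, 7118 and 7891 CPM in TLCP and 7761, 7977 and 8772 CPM in Tfh, and was 1.13-fold lower in TLCP (log2 -0.17, SE 0.06, adjusted p = 0.0444). Only the highest TLCP library, number 6, reached into the Tfh range, and TLCP was lower in 6 of 6 numbered pairs. Without Tfh 3, its highest library, the Tfh group ran from 7761 to 7986 CPM, with a mean of 5132 ± 61.6 CPM per 1000 bases (SD, n = 5), and the log2 difference was -0.15 (adjusted p = 0.0961). The call was lost in 9 of 12 fits that left out 1 library (each but TLCP 4, TLCP 6 and Tfh 2), with adjusted p from 0.0162 to 0.0961 over the 12, and it depended on the scaling: with library totals alone the log2 difference was 0.00 (adjusted p = 0.985), and on the TPM scale it was 0.11 (adjusted p = 0.578). mt-Cytb (chrM:14145-15288), the last coding gene of the plus strand, had 4339, 4772 and 5315 CPM in TLCP and 3577, 4249 and 5103 CPM in Tfh (log2 0.16, SE 0.09, adjusted p = 0.18), with 3 of 6 pairs higher in TLCP. It passed with library totals alone (log2 0.33, adjusted p = 0.0278).

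The differences of the plus-strand mRNAs varied between the libraries numbered 1 to 3 and those numbered 4 to 6, a division that no label names as a batch. In numbers 1 to 3 alone, mt-Nd5 differed by log2 0.34 (adjusted p = 0.0104), mt-Nd4 by 0.12 (adjusted p = 0.214), mt-Nd2 by 0.05 (adjusted p = 0.6253) and mt-Cytb by -0.11 (adjusted p = 0.233). In numbers 4 to 6 alone they differed by 0.67, 0.55, 0.44 and 0.44 (adjusted p between 0.000444 and 0.0062). mt-Rnr1, mt-Rnr2, mt-Nd5 and mt-Nd6 passed in the same direction in both sets. Whether the sets differ was not tested. The libraries TLCP 5 and TLCP 4 had the largest immunoglobulin shares, and without them mt-Nd2 (log2 0.23, adjusted p = 0.0979) and mt-Nd4 (log2 0.29, adjusted p = 0.0653) no longer passed, while mt-Nd5 (log2 0.45, adjusted p = 0.00338) and the 4 lower genes still did.

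**Figure D2:**
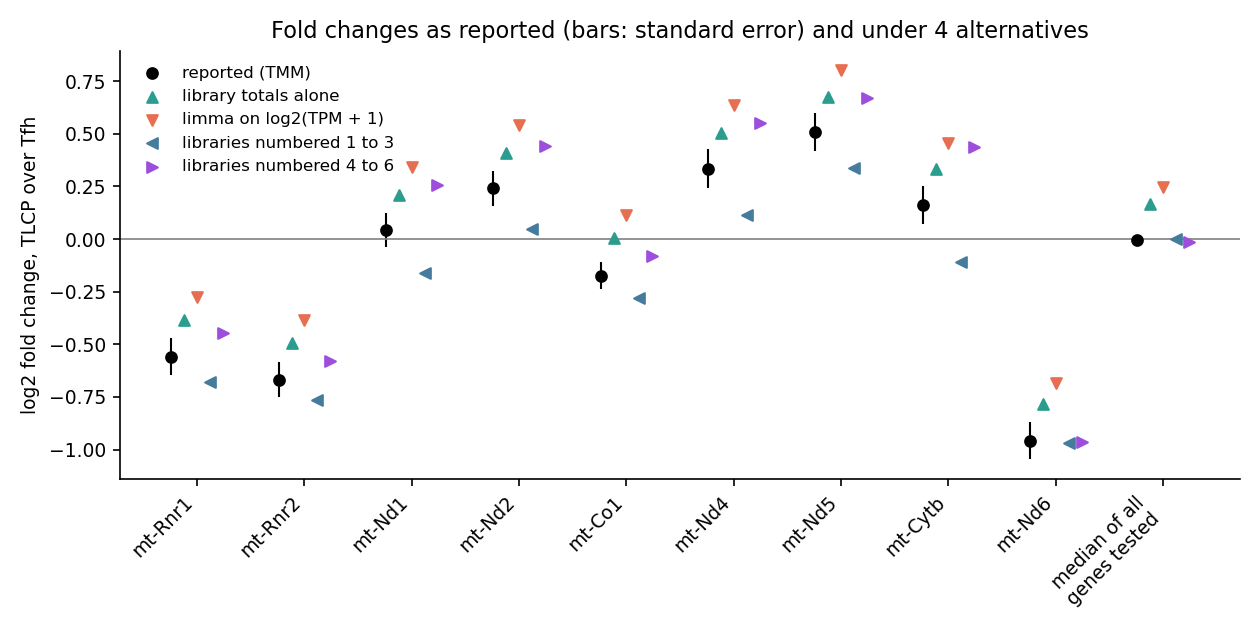
Log2 fold change of TLCP over Tfh for the 9 tested rRNA and protein-coding genes and the median of all genes tested, as reported with its standard error (black circles), with library totals alone, on log2(TPM + 1), and for libraries numbered 1 to 3 or 4 to 6 only. mt-Nd5 lay above 0 and mt-Rnr1, mt-Rnr2 and mt-Nd6 below 0 under all 5, while mt-Co1, mt-Nd1 and mt-Cytb crossed 0 under at least 1.

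mt-Nd6, the only protein-coding gene of the minus strand (chrM:13552-14070), carried the largest difference of the 12. It encodes a membrane subunit of complex I. Its level was 88.0, 114 and 136 CPM in TLCP (lowest, median, highest) and 204, 223 and 236 CPM in Tfh. The groups lay far apart, and the gene was 1.94-fold lower in TLCP (log2 -0.96, SE 0.09, adjusted p = 7.64e-08), in 6 of 6 numbered pairs. mt-Nd6 and mt-Nd5 face each other on opposite strands and share 14 bases at their 3′ ends. These ends, 45 bases each, are printed from the GENCODE M21 transcripts on GRCm38, 5′ to 3′, because the contrast in strand turns on this locus. Capitals mark the 14 shared bases, which are the reverse complement of each other.
mt-Nd5: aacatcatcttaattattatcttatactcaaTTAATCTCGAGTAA
mt-Nd6: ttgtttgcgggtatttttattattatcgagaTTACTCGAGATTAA

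The counts of mt-Nd5 per count of mt-Nd6 were 22.6 to 39.1 in TLCP and 7.05 to 11.2 in Tfh, with means of 27.3 ± 6.57 and 9.67 ± 1.73. Library TLCP 4 was the highest. The deposited count files also hold the reads on the strand opposite to each gene, which allowed the RNA of each strand to be compared over both genes. These opposite-strand counts were tested in the same fit as all genes, where 33.0% of 12117 rows passed.

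RNA of the minus strand was lower in TLCP over both genes. On the strand opposite to mt-Nd5, which is the direction of mt-Nd6, there were 132, 150.4 and 172 CPM in TLCP (lowest, median, highest) and 205, 257 and 272 CPM in Tfh. The groups did not overlap (log2 -0.75, SE 0.08, adjusted p = 5.21e-07). RNA of the plus strand was higher over both genes: the strand opposite to mt-Nd6 had 1003, 1106 and 1339 CPM in TLCP and 571, 755 and 960 CPM in Tfh. Again the groups did not overlap (log2 0.57, SE 0.11, adjusted p = 0.000524). Plus-strand reads that cross the shared 14 bases can enter both the mt-Nd5 count and the opposite-strand count of mt-Nd6. Minus-strand reads there can enter both the mt-Nd6 count and the opposite-strand count of mt-Nd5. Neither opposite-strand value is thus separate evidence for the difference of the gene read in the same direction. The ratio of the plus-strand counts, given below, varied little between libraries and overlapped between the groups. On the minus strand, the opposite-strand count of mt-Nd5 per count of mt-Nd6 was 1.24 to 1.69 in TLCP and 1.01 to 1.19 in Tfh. How far the values on either strand come from shared transcripts was not tested.

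Reads of the plus strand made up 90.7% ± 1.79 of the reads over mt-Nd6 on both strands in TLCP and 76.9% ± 4.08 in Tfh. Over mt-Nd5 the minus strand made up 4.74% ± 0.56 in TLCP and 10.7% ± 2.05 in Tfh. For comparison, the opposite strand of mt-Rnr1 made up 0.341% to 0.481% in TLCP and 0.226% to 0.609% in Tfh. Without Tfh 3, which stood apart in these reads, the upper end in Tfh was 0.277%, and the groups did not overlap. The base of this share holds the mt-Rnr1 count itself, which was lower in TLCP. The opposite-strand count of mt-Rnr1 did not pass without Tfh 3 (log2 0.19, adjusted p = 0.257, edgeR). Counts of mt-Nd5 per opposite-strand count of mt-Nd6 were 2.57 to 2.83 in TLCP and 2.60 to 2.98 in Tfh, with overlap. When reads of both strands were pooled, mt-Nd6 was higher in TLCP (log2 0.32, adjusted p = 0.00543), opposite to its own-strand result.

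**Figure D3:**
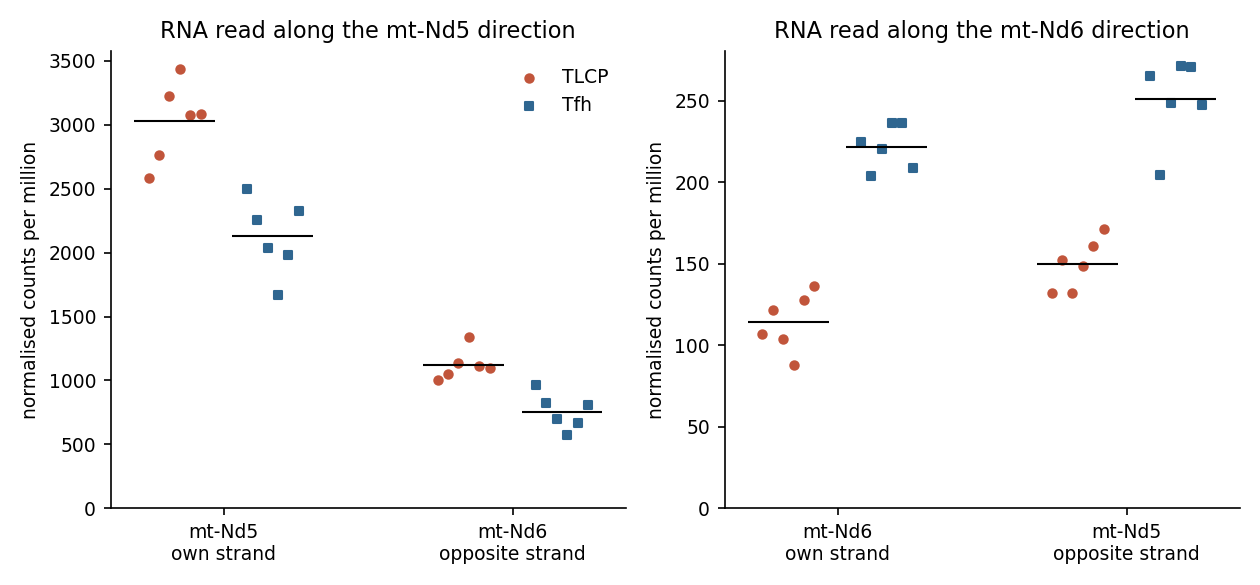
CPM by library for RNA in the direction of mt-Nd5 (left panel: mt-Nd5 itself and the strand opposite to mt-Nd6) and in the direction of mt-Nd6 (right panel: mt-Nd6 itself and the strand opposite to mt-Nd5), TLCP as circles, Tfh as squares, bars at the mean of 6. All 6 TLCP libraries lay above all 6 Tfh libraries in the left panel and below them in the right panel.

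Of the 37 opposite-strand counts, 16 could be tested, and 2 were higher in TLCP, 1 was lower and 13 did not pass. Over all rows of that fit, 33.0% passed. Besides those over mt-Nd5 and mt-Nd6, the opposite strand of mt-Cytb passed, with 50.9 ± 3.83 CPM in TLCP against 39.2 ± 9.7 in Tfh (log2 0.37, SE 0.12, adjusted p = 0.0242). Its groups overlapped through library Tfh 3, which had 57.9 CPM, and without it the Tfh mean was 35.5 ± 3.65 CPM (n = 5) and the log2 difference 0.52 (adjusted p = 0.000295). The call was lost without TLCP 3 (adjusted p = 0.056), Tfh 1 (adjusted p = 0.0519), Tfh 4 (adjusted p = 0.0524) or Tfh 6 (adjusted p = 0.0607), and without the 2 TLCP libraries richest in immunoglobulin (adjusted p = 0.0617). Library Tfh 3 also had 191 CPM opposite to mt-Rnr1, where the other 5 Tfh libraries had 60.1 to 90.8 (log2 0.19, adjusted p = 0.257 without it; log2 -0.14, adjusted p = 0.736 with it), and 51.2 CPM opposite to mt-Co1, where the others had 20.3 to 25.2. Without it, the opposite strand of mt-Co1 passed as higher in TLCP (log2 0.57, adjusted p = 0.000407; log2 0.31, adjusted p = 0.269 with it). The opposite strand of mt-Rnr2 passed as lower without it (log2 -0.33, adjusted p = 0.0251; log2 -0.54, adjusted p = 0.0603 with it) and also without Tfh 6 (log2 -0.64, adjusted p = 0.021) and with the replicate block (adjusted p = 0.014). Minus-strand counts were thus lower over mt-Nd5 and mt-Nd6, and higher over mt-Cytb with a call lost in 4 of 12 fits. Over mt-Cytb the opposite strand made up 1.05% ± 0.11 of both strands in TLCP and 0.908% ± 0.17 in Tfh. Over all genes together it made up 3.59% to 4.19% in TLCP and 2.83% to 3.71% in Tfh. Whether the reads opposite to mt-Cytb are true RNA of that strand was not tested. Among the 7 tested counts opposite to minus-strand tRNA genes, none passed, and the log2 differences ran from -0.63 at mt-Tn to 0.26 at mt-Te.

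A stretch of 11 genes from mt-Ts1 to mt-Nd4l was almost empty, with 10 reads in all 12 libraries together. It holds 6 protein-coding genes: mt-Co2 and mt-Co3 (complex IV), mt-Atp6 and mt-Atp8 (ATP synthase), and mt-Nd3 and mt-Nd4l (complex I). mt-Co2, mt-Co3, mt-Atp8 and mt-Nd4l had no read in any library, mt-Atp6 had 1 and mt-Nd3 had 9. The nuclear genome of this assembly holds copies of the same stretch on chromosome 1, at chr1:24611535-24616197 on the minus strand, and the counting left out reads that map to more than 1 place.

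The copies match over long runs. Gm28437 is identical to mt-Co3 over 783 bases, Gm28661 to mt-Co2 over 681, Gm10925 to mt-Atp6 over 678, Gm28438 to mt-Nd3 over 342 and Gm10222 to mt-Nd4l over 294. Between 98.0% and 100% of the 50-base runs of these 5 mitochondrial genes occurred in another transcript. These 5 copies themselves were nearly as empty, with 0 to 35 reads each over all libraries. The first 60 bases of mt-Co3 and of its copy, with identical bases in capitals, show the match.
mt-Co3: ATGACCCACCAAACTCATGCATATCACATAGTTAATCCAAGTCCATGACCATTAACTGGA
Gm28437: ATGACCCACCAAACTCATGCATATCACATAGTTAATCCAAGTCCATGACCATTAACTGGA

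For mt-Atp8, which lies between mt-Co2 and mt-Atp6, no 50-base run occurred in another transcript, and the genome between the chromosome 1 copies of its neighbours was not used here. The counts leave out multimapping reads, so for the 5 genes with matching copies a count near 0 gives no upper limit on expression. For mt-Atp8 the part of multimapping was not tested. The copied stretch ends inside the neighbouring genes. Gm28439 is identical to the first 876 of 1378 bases of mt-Nd4, and Gm29216 to bases 1067 to 1545 of mt-Co1. These 2 copies hold 62.2% and 28.7% of the 50-base runs of mt-Nd4 and mt-Co1, and had 0 and 67 reads over all libraries. A further nuclear pseudogene, Gm13340, holds 27.5% of the runs of mt-Co1, scattered between bases 1 and 1457, so that 51.1% of its runs occurred in some other transcript. Where along each gene its reads lay is not given by the counts. The 60 bases around each border are printed with the side identical to Gm28439 or Gm29216 in capitals, bases 847 to 906 for mt-Nd4 and 1037 to 1096 for mt-Co1.
mt-Nd4: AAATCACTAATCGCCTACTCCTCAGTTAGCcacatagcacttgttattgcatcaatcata
mt-Co1: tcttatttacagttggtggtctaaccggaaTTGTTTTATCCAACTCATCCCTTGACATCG

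The share of 50-base runs found in another transcript was 8.19% for mt-Nd2, 7.61% for mt-Nd5 and 1.04% for mt-Rnr2, and no 50-base run of mt-Nd1, mt-Nd6, mt-Cytb or mt-Rnr1 occurred in another transcript. No source used here gives the read length, so 50 bases is a yardstick only. Multimapping reads came to 16.1% to 20.04% of all reads in TLCP and 18.7% to 24.3% in Tfh.

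The tRNAs, which carry amino acids to the mitochondrial ribosome, were hardly captured. Of the 22 genes, 8 had no read, 11 had 2 to 103 reads in all libraries together and 3 could be tested. Of the 8, 5 lie in the almost empty stretch (mt-Ts1, mt-Td, mt-Tk, mt-Tg and mt-Tr). The other 3, mt-Th, mt-Ts2 and mt-Tl2, lie between mt-Nd4 and mt-Nd5, and their count of 0 allows up to 0.236 to 0.432 CPM per library (3 counts of the total, counting error only) of reads that can be assigned to 1 gene. The 3 tested genes are printed because they alone had enough counts to be tested. Capitals in mt-Tw mark the 2 bases it shares with mt-Nd2.
mt-Tm: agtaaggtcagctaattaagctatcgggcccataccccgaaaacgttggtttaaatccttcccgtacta
mt-Tw: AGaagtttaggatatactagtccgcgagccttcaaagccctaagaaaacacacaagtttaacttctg
mt-Tt: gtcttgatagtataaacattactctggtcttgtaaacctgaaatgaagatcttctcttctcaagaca

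mt-Tm, the methionine tRNA (chrM:3845-3913), had 0.919, 1.66 and 3.44 CPM in TLCP (lowest, median, highest) and 0.885, 1.67 and 2.95 CPM in Tfh. mt-Tw, the tryptophan tRNA (chrM:4950-5016), had 2.16, 3.96 and 5.01 CPM in TLCP and 3.59, 4.96 and 6.20 CPM in Tfh. mt-Tt, the threonine tRNA (chrM:15289-15355), had 1.08, 2.81 and 3.0 CPM in TLCP and 1.20, 2.09 and 2.39 CPM in Tfh. The groups overlapped for all 3, and none passed (log2 0.22, SE 0.41, log2 -0.36, SE 0.25, and log2 0.30, SE 0.33, with adjusted p = 0.727, 0.281 and 0.525). None had an unadjusted p under 0.05, and DESeq2 and limma voom also called 0 of 3. mt-Tm and mt-Tw each adjoin mt-Nd2 and mt-Tt adjoins mt-Cytb, and the counting sets a read that spans 2 genes aside as ambiguous, so that a read across such a border entered neither count. With SEs of 0.25 to 0.41, differences of the size seen for mt-Rnr1 were not detectable for these tRNAs at this depth.

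Summed over all 37 genes, mitochondrial transcripts took 7.59% ± 0.764 of the assigned counts in TLCP and 9.17% ± 0.924 in Tfh, with overlapping ranges. The rRNA part was 5.28% ± 0.576 and 7.23% ± 0.745 without overlap. As a share of all reads in the files, unassigned ones included, the rRNA part was 2.18% to 3.23% in TLCP and 2.91% to 4.56% in Tfh, with overlap. As a share of the summed TPM the groups also overlapped, at 8.85% to 12.3% in TLCP and 10.8% to 17.4% in Tfh. The mRNA part went the other way, at 2.30% ± 0.242 in TLCP and 1.94% ± 0.256 in Tfh, with overlap. It is not the whole mitochondrial mRNA, since 6 of the 13 protein-coding genes had 10 assigned reads in all. Reads of mt-Co1 and mt-Nd4 may also be missing in part. These sums move with the other abundant RNAs, and with nuclear protein-coding counts as the base the rRNA counts were 7.55% and 11.5% of that base and the mRNA counts 3.28% and 3.07%. No test was made on these sums.

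The ratio of rRNA to mRNA counts does not depend on that base. Its mRNA counts come almost wholly from 7 of the 13 protein-coding genes. It was 2.002, 2.26 and 2.64 in TLCP (lowest, median, highest) and 3.21, 3.77 and 4.43 in Tfh. Every TLCP library lay below every Tfh library, and the mean was 1.63-fold lower. Poly(A) selection captures rRNA with short tails only in part, and the share of tailed rRNA was not measured.

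**Figure D4:**
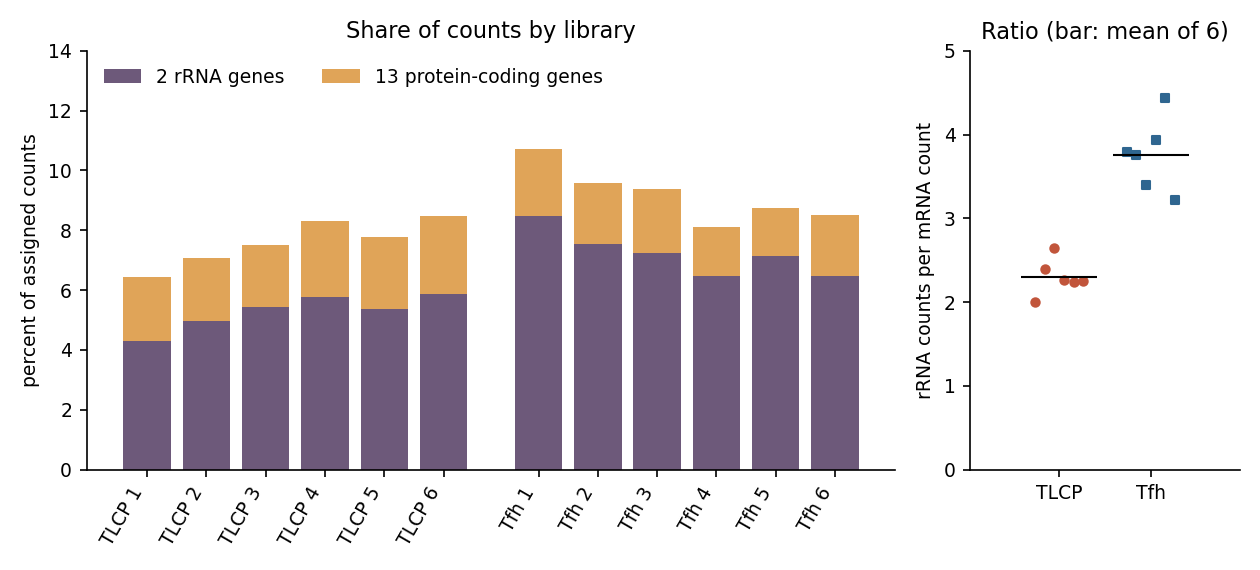
Percent of assigned counts from the 2 mitochondrial rRNA genes and the 13 protein-coding genes in each library (left), and counts of rRNA per count of mRNA by group with bars at the mean of 6 (right). The rRNA part was 4.30% to 5.87% in TLCP and 6.47% to 8.47% in Tfh, and the ratios of the groups did not overlap. Of the 13 protein-coding genes, 6 had almost no assigned reads.

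Within the mitochondrial mRNA counts, composition also differed. These percentages are of assigned counts, which hold almost nothing of 6 protein-coding genes and may understate mt-Co1 and mt-Nd4. mt-Nd5 made up 13.01% to 15.3% in TLCP and 8.90% to 11.7% in Tfh. mt-Nd4 made up 6.37% to 6.72% and 4.55% to 6.19%. mt-Co1 made up 31.8% to 33.9% in TLCP and 35.4% to 43.9% in Tfh. mt-Nd6 made up 0.38% to 0.588% and 0.93% to 1.3%. The groups did not overlap for these 4 genes, and they overlapped for mt-Nd1, mt-Nd2 and mt-Cytb. For mt-Co1 the SD was 0.766 percentage points in TLCP and 3.17 in Tfh.

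Genes of the nucleus that serve the mitochondrial genome were read from lists of the replication, transcription, RNA processing and translation machinery. The 10 tested genes for mitochondrial transcription did not pass in either direction by edgeR, DESeq2 or limma voom. By edgeR 33.2% of all genes tested passed. None had an unadjusted p under 0.05 by edgeR. Polrmt, the mitochondrial RNA polymerase, had 12.2 ± 2.36 CPM in TLCP and 10.6 ± 1.3 in Tfh (log2 0.20, SE 0.16, adjusted p = 0.35). Tefm, which helps the polymerase elongate, had 4.17 ± 1.27 and 5.40 ± 1.81 CPM (log2 -0.39, SE 0.26, adjusted p = 0.269). Tfb1m, a methyltransferase of the 12S rRNA, had 7.10 ± 0.936 and 8.45 ± 2.0 CPM (log2 -0.26, SE 0.18, adjusted p = 0.298).

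Of 17 tested genes for mitochondrial DNA replication and maintenance, 2 were lower and 0 higher, which is 11.8% lower where 16.4% of all genes were (median log2 0.09; 2 higher at unadjusted p under 0.05; 1 lower with DESeq2, 1 higher and 2 lower with limma voom). The lower genes were Top1mt, a mitochondrial topoisomerase (1.64-fold, adjusted p = 0.0314), and Tfam, which packages mitochondrial DNA and starts its transcription (71.8 ± 7.49 against 84.2 ± 9.22 CPM, 1.17-fold, adjusted p = 0.045). Atad3a, a membrane ATPase linked to nucleoids, had 16.7 ± 2.81 and 12.9 ± 3.97 CPM (log2 0.39, adjusted p = 0.102), and passed as higher without Tfh 4 (adjusted p = 0.0363) or Tfh 5 (adjusted p = 0.034). Tfam was lost without TLCP 1, 3 or 4 or Tfh 1, 2 or 3 (adjusted p up to 0.110), and Top1mt without TLCP 3 or 5 or Tfh 1, 4 or 5 (adjusted p up to 0.0759). Without TLCP 3 or Tfh 1, 0 of the 17 were lower. Both calls were lost with library totals alone (Top1mt log2 -0.53, adjusted p = 0.104, and Tfam log2 -0.06, adjusted p = 0.716).

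Of 41 tested genes for RNA processing and turnover, 6 were higher and 0 lower (median log2 0.05). This is 14.6% higher, a share near the 16.8% of all genes tested. Among them were Dhx30, an RNA helicase of mitochondrial RNA granules (1.23-fold, adjusted p = 0.00458), Fastk, the founder of a family that acts on mitochondrial mRNAs and whose own isoform is linked to the mt-Nd6 mRNA (1.32-fold, adjusted p = 0.0131), and Pus1, a pseudouridine synthase of tRNAs (1.28-fold, adjusted p = 0.0222). Lower members were 2 at unadjusted p under 0.05, and DESeq2 and limma voom also called 6 higher and 0 lower. Without the 2 TLCP libraries richest in immunoglobulin, 1 of the 41 passed as higher. Without TLCP 3, 4, 5 or 6 or Tfh 2 or 5, 3 were higher, and without Tfh 3, 2 were. Pus1 was lost without TLCP 6 (adjusted p = 0.0558) or Tfh 3 (adjusted p = 0.0612). Without TLCP 4 or 6 or Tfh 2 or 5, 1 member passed as lower.

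Of 22 genes listed for the charging of mitochondrial tRNAs (aminoacyl-tRNA synthetases with Qrsl1, Gatb and Gatc), 3 were higher and 0 lower. The 13.6% higher lay near the 16.8% of all genes (median log2 0.04). By edgeR 0 were lower at unadjusted p under 0.05, and DESeq2 and limma voom called 0 lower. The 3 higher genes were Tars2 (threonine, 1.47-fold, adjusted p = 0.00024), Mars2 (methionine, 1.68-fold, adjusted p = 0.00052) and Gars (glycine, shared with the cytosol, 1.20-fold, adjusted p = 0.0222). Of 18 translation and insertion factors, 3 were lower and 0 higher, and the 16.7% lower lay near the 16.4% of all genes (median log2 0.03; 1 higher at unadjusted p under 0.05). They were Mrpl58, a peptidyl-tRNA hydrolase of the mitochondrial ribosome (1.38-fold, adjusted p = 0.001), Cox20, a chaperone for the complex IV subunit of mt-Co2 (1.28-fold, adjusted p = 0.0189), and Letm1, an ion exchanger of the inner membrane (1.18-fold, adjusted p = 0.0402). DESeq2 called 2 and limma voom 3 of these 18 as lower and 0 as higher. Gars was lost without TLCP 5 or 6 or Tfh 1 (adjusted p up to 0.0663). Letm1 was lost without TLCP 1, 2, 4 or 5 or Tfh 3, 4 or 5 (adjusted p up to 0.0971), and Cox20 without Tfh 3 (adjusted p = 0.0518), which left 1 of the 18 lower.

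Of 27 genes for mitochondrial mass and biogenesis, 3 were higher and 5 lower (median log2 -0.02). These shares, 11.1% and 18.5%, lay near the 16.8% and 16.4% of all genes. Myc, a transcription factor of growth and biogenesis, had 42.5 ± 5.46 CPM in TLCP and 23.1 ± 4.37 in Tfh (1.85-fold, log2 0.89, adjusted p = 1.3e-05). Slc25a4, an ADP/ATP carrier of the inner membrane, was 1.32-fold lower (adjusted p = 0.00107) and Yy1, a transcription factor, 1.19-fold lower (adjusted p = 0.0015). With library totals alone, 7 were higher and 0 lower.

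Nuclear subunits of the 5 complexes of oxidative phosphorylation that passed the test were all lower in TLCP. Over complexes I to V, 35 of 77 tested subunits were lower, 0 were higher and 42 did not pass, with a median log2 fold change of -0.27, where 16.4% of all genes were lower. At unadjusted p under 0.05 there were 42 lower and 0 higher, and DESeq2 and limma voom called 31 and 35 lower and 0 higher. By complex, 15 of 36 were lower in I, 2 of 4 in II, 5 of 9 in III, 6 of 11 in IV and 7 of 17 in V. Complex II, which holds no mitochondrially encoded subunit, had a median of -0.26 against -0.29 for complex I.

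In complex I, Ndufs6 (25.5 ± 1.51 against 40.0 ± 2.92 CPM, 1.57-fold) and Ndufs4 (37.9 ± 2.71 against 52.7 ± 2.63 CPM, 1.39-fold) are accessory subunits near the NADH-oxidising end, and Ndufb11 (1.31-fold) sits in the membrane arm. In complex II, Sdha (the flavoprotein) and Sdhc (a membrane anchor) were 1.23-fold and 1.24-fold lower, and Sdhd had 40.9 ± 3.60 against 47.5 ± 4.97 CPM (adjusted p = 0.0664). Sdhc was lost without TLCP 1 (adjusted p = 0.0596), and Sdhd passed as lower without TLCP 6 (adjusted p = 0.0355) or Tfh 4 (adjusted p = 0.0205). In complex III, Uqcrh, Uqcrb and Uqcrc2 were 1.38-fold, 1.29-fold and 1.23-fold lower, and the 5 lower subunits came to 3 without TLCP 1 or Tfh 4, 5 or 6. In complex IV, Cox6b1, Cox7b and Cox4i1 were 1.35-fold, 1.31-fold and 1.26-fold lower. In complex V, the ATP synthase, Atp5k, Atp5c1 and Atp5j were 1.44-fold, 1.301-fold and 1.298-fold lower. The largest adjusted p of the 14 lower genes named here was 0.023, at Sdhc.

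Thus within complex I mt-Nd2, mt-Nd4 and mt-Nd5 were higher, mt-Nd1 did not pass, and mt-Nd6 and 15 nuclear subunits were lower. Of the 3 higher genes, only mt-Nd5 also passed with libraries 1 to 3 and without the 2 TLCP libraries richest in immunoglobulin. Scaling moved the nuclear lists: with library totals alone 7 of the 77 were lower and 0 higher, and on the TPM scale 1 was lower and 0 higher (median log2 -0.09 and 0.04, where all genes had medians of 0.17 and 0.25). Without the 2 TLCP libraries richest in immunoglobulin, 26 were lower and 0 higher.

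**Figure D5:**
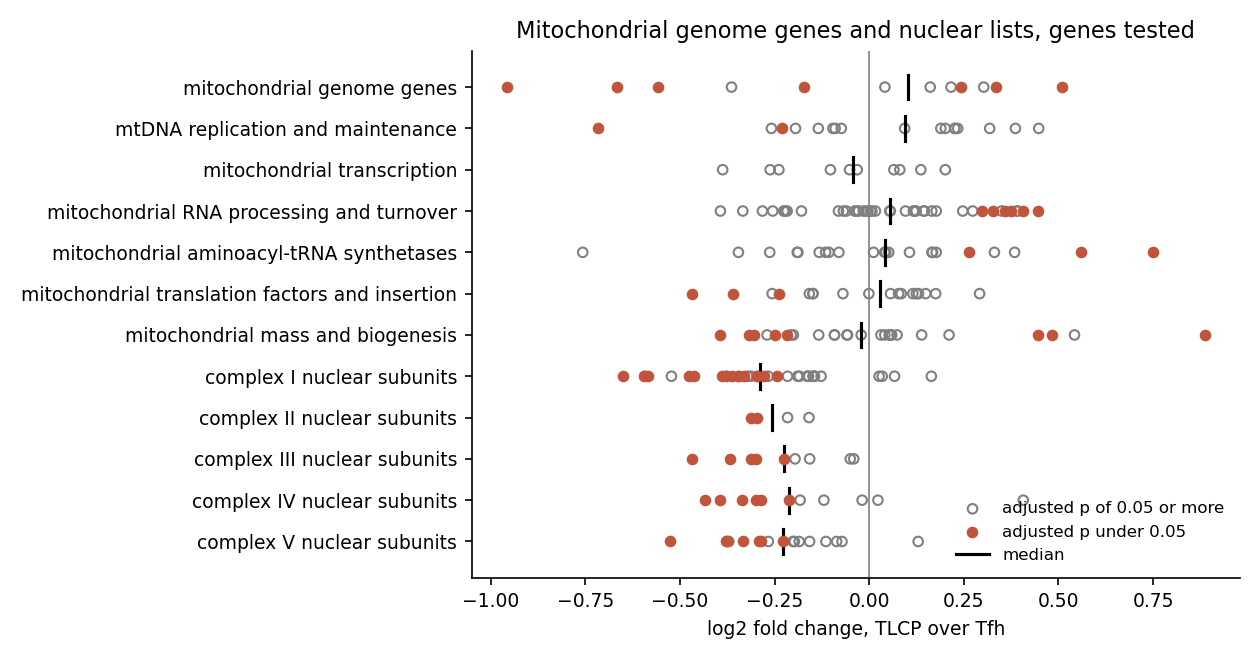
Log2 fold change of TLCP over Tfh of each tested gene, for the mitochondrial genome genes and 11 nuclear lists, filled where the adjusted p was under 0.05, with a bar at the list's median. All filled points of the 5 complex lists lay below 0, while those of the mitochondrial genome genes ran from -0.96 to 0.51.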

How the data were processed

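Polyadenylated RNA of 12 sorted CD4 T cell libraries was analysed. The submitters' processing notes name STAR 2.7.1a, bcl2fastq 2.20, DESeq2 1.30.1 and GRCm38, and no source used here gives the read length. The authors deposited raw counts per gene, in the layout of STAR, for each strand, and the column on the gene's strand was used. They also deposited TPM values, and a table with log2 fold changes, p-values and a normalized signal per library that gave whole reads for 100% of values (tolerance 0.01 reads), equal to the counts; the refit on these reads called 3983 genes. Reads not assigned to a gene (44.9% to 56.4%, multimapping and ambiguous ones included) stayed out.

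Counts were fitted in R 4.3.3 with edgeR 4.0.16 (filterByExpr, TMM, robust quasi-likelihood, 2-sided), without a covariate, and adjusted by Benjamini and Hochberg over all genes tested. Fold changes are TLCP over Tfh. Levels are TMM-scaled CPM, and SE is |log2 fold change|/sqrt(F). Opposite-strand counts were added as rows, with the scaling of the fit unchanged. Sums, shares and ratios have no test. Shared runs and printed sequences come from the GENCODE M21 transcripts, whose spans equal those of the files for all 37 genes. The fit was tested on simulated data.

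Numbers 1 to 6 occur in both groups. Deviations of libraries with the same number correlated at 0.127 to 0.318 (other numbers up to 0.209). Libraries of the same number are called numbered pairs here, although these ranges overlap and the pairing is not settled. The reported fit is unpaired, and the fit with the replicate block is the paired alternative. All 37 members are accounted for, and of each nuclear list the 3 genes with the smallest p are named. The members and lists were chosen with earlier results of these data known. Alternatives were RLE, upper quartile and total scaling, scaling on nuclear protein-coding genes, DESeq2 1.42.0, limma 3.58.1 voom, limma on log2(TPM + 1) with a filter of 1 TPM in 6 libraries, no filter, a stricter filter (10 CPM in 6 libraries), the replicate block, unstranded counts, each library or the immunoglobulin genes left out, and numbers 1 to 3 or 4 to 6 only. Chosen later, with the data seen, were a refit on recovered reads, fits without rRNA genes or without the 2 TLCP libraries richest in immunoglobulin, and all opposite-strand alternatives.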

Additional observations from a re-analysis of the deposited data

Results flagged for a closer look

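In 15 of 150 groups of 6 libraries that were examined, 1 library lay farther from the rest than Dixon's 95% limit allows (a gap over 0.625 of the group's range), where chance alone gives about 1 in 20 groups. Library Tfh 3 was the outlying one in 6 of these. It had 8772 CPM of mt-Co1 (others 7761 to 7986), and on the opposite strands 191 CPM over mt-Rnr1 (others 60.1 to 90.8), 398 over mt-Rnr2 (157 to 233), 37.2 over mt-Nd2 (25.5 to 29.1), 51.2 over mt-Co1 (20.3 to 25.2) and 57.9 over mt-Cytb (29.5 to 39.0). Its opposite-strand values were high at both rRNA genes and at 3 mRNA genes, while over mt-Nd5 it lay within its group.

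Library TLCP 1 had the lowest mt-Rnr2, at 23619 CPM (others 29123 to 32304). Library Tfh 2 had 205 CPM on the strand opposite to mt-Nd5 (others 247 to 272) and a ratio of that strand to mt-Nd6 of 1.01 (others 1.13 to 1.19). Library TLCP 4 had a ratio of 1.69 where the other TLCP libraries had 1.24 to 1.28. Library Tfh 4 had 2.87 CPM on the strand opposite to mt-Te (others 7.89 to 10.8).

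Among the nuclear genes, Tfb1m was at 8.89 CPM in TLCP 3 (others 6.31 to 7.26). Letm1 was at 81.4 CPM in Tfh 4 (others 57.5 to 64.7). Cox7b was at 73.2 CPM in TLCP 6 (others 57.8 to 63.5), and Atp5j at 70.1 CPM in TLCP 1 (others 61.8 to 64.8). No cause of these values was tested.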

How the results depend on the processing

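mt-Rnr1, mt-Rnr2, mt-Nd5 and mt-Nd6 kept their direction and call in all 12 fits that left out 1 library, with both sets of numbers and with the replicate block. The block changed 1 call among the single results, the opposite strand of mt-Rnr2, and raised the opposite-strand counts lower in TLCP from 1 to 2. Scaling set the balance of calls over all genes: 3207 higher and 893 lower with library totals alone, and 3180 and 473 on log2(TPM + 1), against 2014 and 1969. On the TPM scale 1 mitochondrial gene was lower, and without rRNA genes, by construction, 2 were. For the mitochondrial genes called higher, the count was 1 with libraries 1 to 3, 5 with 4 to 6, and 1 without the 2 TLCP libraries richest in immunoglobulin. The opposite-strand counts called higher came to 1 with libraries 1 to 3 and without those 2 TLCP libraries.

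The share of all mitochondrial genes, as the ratio of the TLCP mean to the Tfh mean, was 0.828 and became 0.709 with libraries 1 to 3 and 0.967 with 4 to 6. For rRNA genes it was 0.731 and became 0.633 with 1 to 3 and 0.845 with 4 to 6. For protein-coding genes it was 1.19 and became 0.985 with 1 to 3 and 1.43 with 4 to 6.

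Leaving out single libraries gave 2 to 3 mitochondrial genes higher and 3 to 4 lower, 1 to 3 opposite-strand counts higher and 1 to 2 lower, and 1770 to 2052 genes higher and 1719 to 1974 lower over all genes. Values that changed sign in these fits were mt-Nd1 (log2 -0.0071 to 0.0961), mt-Tm (-0.0096 to 0.44), the opposite strand of mt-Rnr1 (-0.25 to 0.19) and that of mt-Nd1 (-0.024 to 0.19), none of which passed. With libraries 1 to 3, the sign also turned for mt-Nd1 (-0.16), mt-Tm (-0.20), mt-Cytb (-0.11) and the opposite strands of mt-Nd1 (-0.061) and mt-Co1 (-0.0296). With 4 to 6 it turned for the opposite strand of mt-Rnr1 (0.20) and for Polrmt (-0.025).

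With library totals alone it turned for mt-Co1 (0.0035) and the opposite strands of mt-Rnr1 (0.034), mt-Nd2 (0.0398) and mt-Nd4 (0.10). On the TPM scale it turned for mt-Co1 (0.11), Tfam (0.056), Tfb1m (0.041), Letm1 (0.047), Yy1 (0.038) and Sdhd (0.0735). With unstranded counts it turned for mt-Nd6 (0.32), by construction, since the plus-strand reads over the gene are then counted too. The other causes were not tested. At this depth 3 of the 22 tRNA genes had enough counts to be tested.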
